A study of Homo sapiens with 6 samples.

Results

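The 37 genes described here encode nucleolar proteins that build ribosomes. They were taken as a list of gene symbols and were matched to the array's probes by symbol or Entrez identifier. A probe carrying the gene's name was found for 33 of them, with 53 probes in all, of which 49 were detected (not 2 of UTP20, 1 of NOP2 and the 1 of NPM1). At least 1 such probe was detected for 32 genes, which were tested among 11501 genes over the whole array. WDR43, GNL3, DDX18 and EBNA1BP2 had no named probe and were not analysed here, and NPM1 was named but not detected.

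The values came from SK-Mel-147, a human melanoma cell line, measured on 6 Illumina HumanHT-12 v4 expression arrays, 2 for each of 3 groups. Cells had received a miR-638 mimic (miR-638), an inhibitor of the same microRNA (antagomiR-638) or the control treatment (mock), and total RNA was taken 48 h after transfection. The study's sources describe the control in more than 1 way, as mock transfection and as a control oligonucleotide, so what the mock cells received is not settled here. All groups were the same line, and nothing in the labels says that the duplicates were separate cultures, so a p-value below reflects the scatter of duplicate arrays, which can be no more than technical.

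Ribosomal RNA is transcribed in the nucleolus by RNA polymerase I, chemically modified by small nucleolar ribonucleoproteins, cut out of its precursor and folded with ribosomal proteins into the small and the large subunit. MYC, a transcription factor that pairs with MAX and binds the E-box CACGTG, is known to activate many of the genes of this process in dividing tumour cells. The comparisons below therefore set each nucleolar gene beside the MYC transcript in the same arrays.

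The microRNA that was added or inhibited is printed first, with its seed (bases 2 to 8) in capitals. RefSeq places it at chr19:10718419-10718443 on the plus strand of GRCh38.p14, inside DNM2.
hsa-miR-638: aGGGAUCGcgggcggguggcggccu

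Promoter sequence was examined because CACGTG is the element to which MYC and MAX bind. RefSeq promoters (GRCh38.p14), each reaching from 250 bases before to 50 bases after a gene's start, were held for 30 of the 37 genes, and 17 of these 30 (56.7%) contained CACGTG, which reads the same on both strands. By gene, the share was 12.8% among the 9309 tested genes with a promoter entry and 8.78% among all 27305 genes with one. By entry, it was 18 of 39 for the nucleolar genes, against 7.26% of all 35116 entries. Of the 19 positions in the nucleolar genes, 17 lay within 100 bases before the start or in the 50 bases after it. No entry was held for NOP58, RRP12, BOP1, RRP1B, DDX18, RRS1 and NOLC1. A match is a string of letters and not a measured binding site. The sites of 4 genes that differed between miR-638 and antagomiR-638 cells are printed first and those of 4 that did not pass the test in any comparison after them, all 5′ to 3′ on the gene's strand, with the E-box in capitals.
FBL (chr19:39846356-39846385, minus strand): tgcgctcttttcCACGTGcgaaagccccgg
GAR1 (chr4:109815781-109815810, plus strand): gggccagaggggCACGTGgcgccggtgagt
DDX21 (chr10:68956604-68956633, plus strand): ggccgggtgtccCACGTGgtccccggcgac
LYAR (chr4:4290068-4290097, minus strand): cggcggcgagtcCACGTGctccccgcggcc
PES1 (chr22:30591880-30591909, minus strand): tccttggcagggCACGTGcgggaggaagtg
MRTO4 (chr1:19251807-19251836, plus strand): cgtcttccgccgCACGTGgattcagcgcga
PNO1 (chr2:68157885-68157914, plus strand): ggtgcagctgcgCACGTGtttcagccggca
RRP9 (chr3:51941892-51941921, minus strand): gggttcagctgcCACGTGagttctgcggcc

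The arrays resembled each other closely, with a correlation of log2 values over probes of 0.994 to 0.995 within groups and 0.976 to 0.988 between groups, and 41.8% to 44.1% of probes were detected on each. Of 11 melanocyte and melanoma markers with a probe, 4 were detected (MITF, SOX10, PAX3 and RAB27A), while the pigment genes PMEL, MLANA, TYR and TYRP1 were not. Of the markers of other cell types, 1 of 8 fibroblast (LUM), 1 of 7 keratinocyte (KRT10), 2 of 7 leukocyte (CD14, CD79A) and 0 of 5 endothelial genes were detected. The summed signal of the fibroblast list was 479 to 489 in miR-638 cells, 764 to 795 in antagomiR-638 cells and 627 to 632 in mock cells, while COL1A1, COL1A2, COL3A1 and DCN were not detected. Most of that sum was LUM, with signals of 433 and 440 in miR-638 cells, 689 and 704 in antagomiR-638 cells, and 558 and 563 in mock cells. With 2 arrays per group, precision is set by the arrays' number. Signals are the deposited linear intensities, and differences are on the log2 scale, with their standard error, from a limma model of 2 arrays in each group. A gene was called at a Benjamini-Hochberg adjusted p of 0.01 or less over all detected probes.

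MYC transcript was far higher in cells transfected with miR-638. Its brighter probe had signals of 937 and 926 in miR-638 cells, 168 and 147.1 in antagomiR-638 cells, and 225 and 177 in mock cells. Both miR-638 arrays thus lay above all 4 others, and the antagomiR-638 arrays lay just below the mock arrays. The log2 difference was 2.13 ± 0.14 between miR-638 and mock cells (4.39-fold, adjusted p = 1.31e-04) and 2.45 ± 0.14 between miR-638 and antagomiR-638 cells (adjusted p = 1.46e-05). Between antagomiR-638 and mock cells it was -0.32 ± 0.14, which was not called (adjusted p = 0.133). The other detected MYC probe read 1024 and 808 in miR-638 cells, 130 and 119 in antagomiR-638 cells, and 187 and 324 in mock cells, with differences of 1.82 ± 0.22 from mock for miR-638 (adjusted p = 0.00183) and -0.91 ± 0.22 for antagomiR-638 (adjusted p = 0.0194). The 2 probes gave the same order of the groups but differed in how far antagomiR-638 cells lay below mock, and without mock replicate 1, when the second probe was the brighter, that difference was -1.28 and called (adjusted p = 0.00396). In that setting the difference between miR-638 and mock cells was 1.45 (adjusted p = 0.00698), and it was not called without miR-638 replicate 2 (1.99, adjusted p = 0.0149), without antagomiR-638 replicate 1 or 2 (1.82 each, adjusted p = 0.0109 and 0.0107) or on signals floored at 16 (2.22, adjusted p = 0.0239).

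The nucleolar genes did not follow MYC in size when miR-638 was compared with mock. None of the 32 tested genes was called, against 1.93% of all genes called higher and 1.13% called lower. At an unadjusted p under 0.05 there were 6 higher (14.9% of all genes) and 2 lower (13.3% of all genes). At an adjusted p of 0.05 or less WDR12 alone passed (6.04% of all genes were higher at that level), with 0.48 ± 0.13 (adjusted p = 0.0451). Its dimmer probe gave 0.55 ± 0.11 (adjusted p = 0.0179). The median difference of the 32 genes was 0.08, against 0.00150 over all genes, and 20 lay above 0, where 50.2% of all genes did, and 12 below. Arrays of the 2 groups did not overlap for 11 genes that were higher (29.6% of all genes were) and 4 that were lower (28.1%). At the brightest probe of each gene, the differences ran between -0.37 for IMP4 and 0.48 for WDR12. The highest upper limit of any 95% interval at these probes was 0.76, below the interval of MYC, 1.82 to 2.45. At the dimmer WDR12 probe the upper limit was 0.80, and the interval of the dimmer MYC probe was 1.32 to 2.31. Since arrays had been scaled to a common distribution, every difference is relative to the other transcripts, and fewer cells of a type and less RNA per cell cannot be told apart in such bulk RNA.

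**Figure D1:**
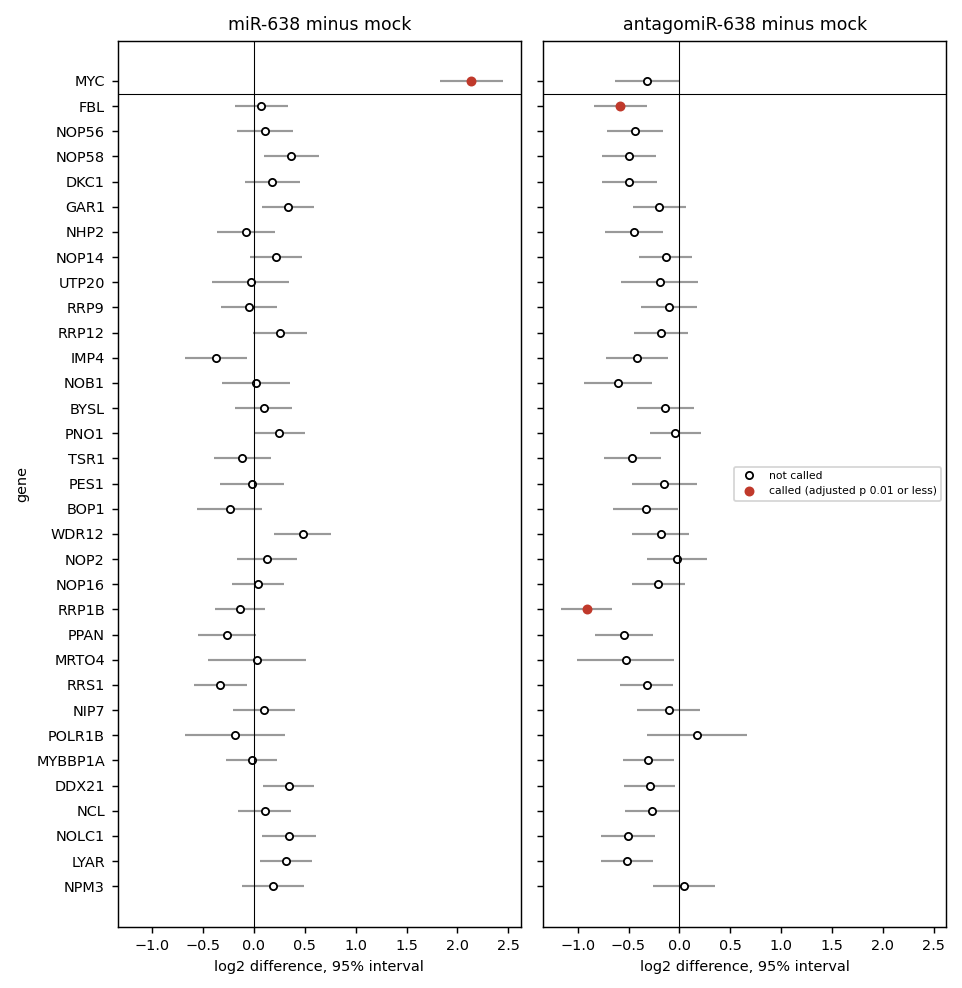
Differences from mock, on the log2 scale, of MYC and the 32 tested nucleolar genes (down the page, grouped by role) for miR-638 (left) and antagomiR-638 (right). Points are limma estimates from 2 arrays in each group, bars are 95% intervals and filled points are called genes. With miR-638 the MYC point at 2.13 stands alone, while with antagomiR-638 30 of the 32 nucleolar genes lie below 0.

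In antagomiR-638 cells the same genes lay mostly below mock, although few passed the test singly. RRP1B and FBL were called lower, 2 of 32 genes (6.25%), against 4.78% of all genes called lower, and 0 were called higher, against 5.83% of all genes. At an adjusted p of 0.05 or less 11 were lower (10.9% of all genes were), and at an unadjusted p under 0.05 18 were lower (18.0% of all genes) and 0 higher (20.4% of all genes). The difference was below 0 for 30 of 32 genes, against 48.6% of all genes, with a median of -0.30 against 0.01. Both antagomiR-638 arrays lay under both mock arrays for 25 genes (31.4% of all genes) and above them for 0 (34.6%). POLR1B, at 0.17 ± 0.22 (adjusted p = 0.62), and NPM3, at 0.04 ± 0.14 (adjusted p = 0.858), were the 2 genes above 0. The comparisons with mock share the same 2 mock arrays, so their values are given side by side and are not independent.

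RRP1B, a nucleolar protein that takes part in the maturation of the large subunit, had signals of 117 and 119 in antagomiR-638 cells, against 231 and 241 in mock cells. It fell by 0.91 ± 0.11 on the log2 scale (0.532-fold, adjusted p = 7.24e-04). Signals in miR-638 cells were 218 and 209, close to mock, with a difference of -0.14 ± 0.11 (adjusted p = 0.486). RRP1B was thus low in antagomiR-638 cells and near the mock level in miR-638 cells.

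FBL, fibrillarin, the enzyme that methylates ribosomal RNA within box C/D particles, read 697 and 671 in antagomiR-638 cells, against 998 and 1063 in mock cells, a fall by 0.58 ± 0.12 (0.669-fold, adjusted p = 0.00817). Its signals in miR-638 cells, 1128 and 1037, overlapped those in mock cells, and the difference of 0.07 ± 0.12 was not called (adjusted p = 0.757). FBL lost its call in this comparison whichever 1 of the 6 arrays was left out, and RRP1B when either antagomiR-638 array was, so that 0 to 1 calls were left. Other settings gave 1 to 11 called genes, all lower, and for most of them the share of all genes called is not given here.

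**Figure D2:**
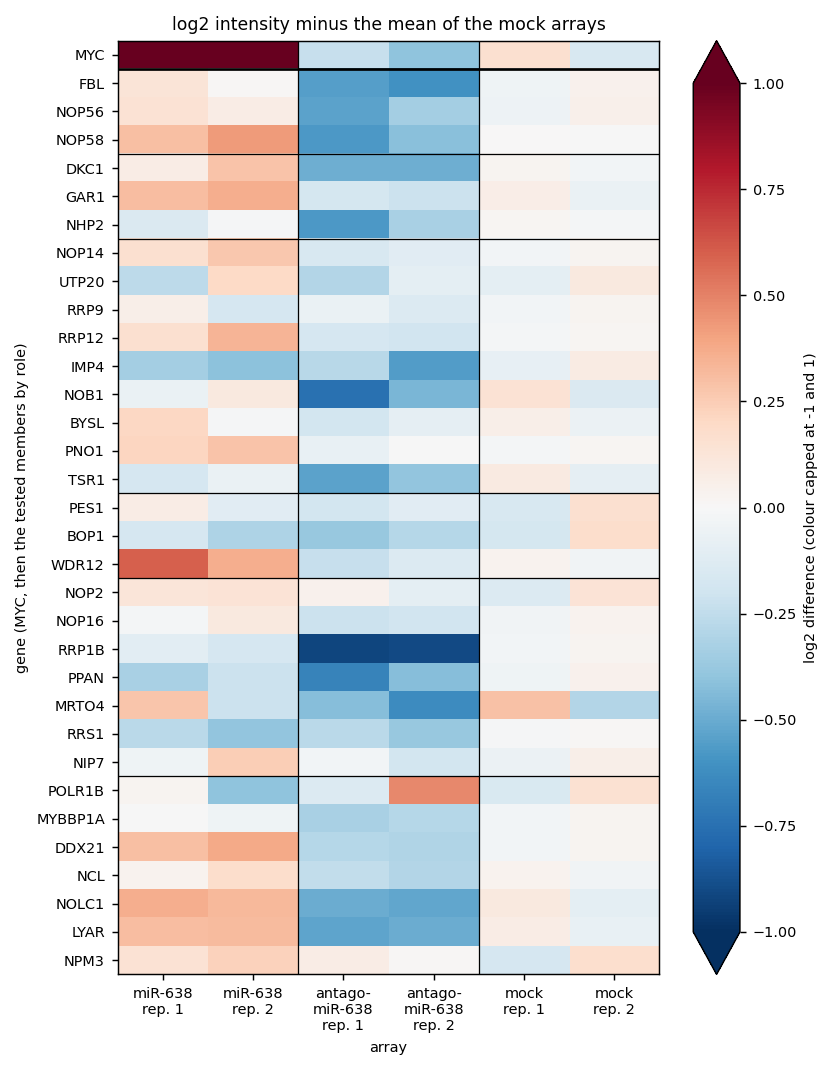
Log2 intensity of MYC and of each tested nucleolar gene on each of the 6 arrays (columns) minus the mean of the 2 mock arrays, as a colour capped at -1 and 1. Lines separate roles, from top to bottom box C/D, box H/ACA, small-subunit, PeBoW, other large-subunit, and polymerase I and scaffold genes. The antagomiR-638 columns are blue for most genes, and RRP1B is the darkest at -0.91, while only MYC is capped in the miR-638 columns.

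The nucleolar genes differed most often between miR-638 and antagomiR-638 cells. Of 32 genes, 9 were called higher in miR-638 cells (28.1%), against 7.55% of all genes, and 0 lower, against 8.28%. The median difference was 0.35, against -0.01 over all genes, and 30 of 32 lay above 0, where 49.2% of all genes did. Both miR-638 arrays lay above both antagomiR-638 arrays for 24 genes (33.6% of all genes) and below them for 0 (34.0%). At an adjusted p of 0.05 or less 14 were higher (14.1% of all genes were), and at an unadjusted p under 0.05 19 were higher (20.5% of all genes) and 0 lower (21.4%). This comparison reuses the arrays of the others, and in each of the 9 genes except RRP1B the miR-638 mean was above and the antagomiR-638 mean below that of mock.

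Among the proteins of the box C/D particles, which carry out ribose methylation of ribosomal RNA, FBL and NOP58 were called and NOP56 missed the threshold. FBL differed by 0.65 ± 0.12 (1.57-fold, adjusted p = 0.00359) at the signals given above. NOP58, a core scaffold of the particle, had 1569 and 1713 in miR-638 cells, 845 and 946 in antagomiR-638 cells, and 1271 and 1266 in mock cells, so that the 3 groups did not overlap. Its difference of 0.86 ± 0.12 between miR-638 and antagomiR-638 cells (1.82-fold, adjusted p = 9.89e-04) was the largest of the list. NOP56, the partner of NOP58, showed 0.54 ± 0.12 (adjusted p = 0.0107) at its brightest probe, 0.59 ± 0.12 (adjusted p = 0.0055) at the second and 0.62 ± 0.14 (adjusted p = 0.0113) at the third.

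In the box H/ACA particles, which convert uridine to pseudouridine, DKC1 and GAR1 were called and NHP2, at 0.37 ± 0.13, was not (adjusted p = 0.0632). DKC1, dyskerin, the pseudouridine synthase itself, had 2944 and 3405 in miR-638 cells, 1984 and 1983 in antagomiR-638 cells, and 2851 and 2738 in mock cells, and differed by 0.67 ± 0.12 between miR-638 and antagomiR-638 cells (1.59-fold, adjusted p = 0.00375). GAR1, which helps the particle release its substrate, had 2079 and 2161 in miR-638 cells, 1481 and 1441 in antagomiR-638 cells, and 1755 and 1601 in mock cells. Its difference was 0.53 ± 0.11 (1.45-fold, adjusted p = 0.00915), the closest of the 9 to the threshold, and its 3 dimmer probes gave 0.47 to 0.63 with none called. DKC1 was separated from mock mainly in antagomiR-638 cells, at -0.49 ± 0.12 (adjusted p = 0.0203), and was not called there. GAR1 at its brightest probe was separated mainly in miR-638 cells, at 0.34 ± 0.11 (adjusted p = 0.103), and was not called either. The 3 dimmer GAR1 probes gave 0.05, 0.05 and 0.35 for miR-638 against mock. For antagomiR-638 against mock they gave -0.44, -0.42 and -0.28 in the same order, so the side differed between GAR1 probes.

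None of the 9 tested genes of the small-subunit processome and 40S assembly was called in any comparison at its brightest probe. All 9 lay above 0 between miR-638 and antagomiR-638 cells, with a median of 0.29, and below 0 between antagomiR-638 and mock cells, with a median of -0.18. NOB1, the nuclease that trims the 3′ end of 18S ribosomal RNA, had the largest difference of this group, at 0.62 ± 0.15 between miR-638 and antagomiR-638 cells (adjusted p = 0.0152). TSR1, a late 40S assembly factor, was not called in antagomiR-638 cells against mock at its brighter probe (-0.46 ± 0.12, adjusted p = 0.0281) and passed the threshold at its dimmer one (-0.69 ± 0.13, adjusted p = 0.00588). IMP4, a partner of the U3 particle, was the lowest of the list in miR-638 cells against mock (-0.37 ± 0.13, adjusted p = 0.117) and lay at -0.42 ± 0.13 in antagomiR-638 cells (adjusted p = 0.0558), so mock was the highest group for this gene.

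WDR12, PES1 and BOP1 form the PeBoW complex, which is needed for maturation of the large subunit, and of these only WDR12 was called. WDR12 had 1375 and 1164 in miR-638 cells, 768 and 818 in antagomiR-638 cells, and 924 and 883 in mock cells, a difference of 0.66 ± 0.13 between miR-638 and antagomiR-638 cells (1.58-fold, adjusted p = 0.0047). Its second probe gave 0.63 ± 0.11 (adjusted p = 0.00342). PES1 and BOP1 gave 0.13 ± 0.14 (95% interval -0.19 to 0.44) and 0.09 ± 0.14 (-0.23 to 0.41). The interval of WDR12 at its brighter probe, 0.38 to 0.95, overlapped both, and differences between these genes were not tested. Among the other 7 tested large-subunit factors RRP1B was the 1 called, at 0.77 ± 0.11 (1.71-fold, adjusted p = 0.00121). RRS1, which brings the 5S particle into the large subunit in yeast, was at -0.33 ± 0.12 in miR-638 cells (adjusted p = 0.11) and -0.32 ± 0.12 in antagomiR-638 cells (adjusted p = 0.0806) against mock, and so at -0.01 ± 0.12 between them.

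DDX21, NOLC1 and LYAR were called among the 7 tested genes of polymerase I, ribosomal DNA and the nucleolar scaffold. DDX21, an RNA helicase that links polymerase I transcription with the processing of its product, had 3659 and 3846 in miR-638 cells, 2420.3 and 2404 in antagomiR-638 cells, and 2900.1 and 3021 in mock cells, and differed by 0.63 ± 0.11 between miR-638 and antagomiR-638 cells (1.55-fold, adjusted p = 0.0034). NOLC1, a chaperone of small nucleolar ribonucleoproteins, had 452 and 439.8 in miR-638 cells, 243 and 238 in antagomiR-638 cells, and 372 and 325 in mock cells, and differed by 0.85 ± 0.12 (1.80-fold, adjusted p = 0.00102). LYAR, a nucleolar zinc finger protein, had 1823 and 1835 in miR-638 cells, 1012 and 1037 in antagomiR-638 cells, and 1544 and 1398 in mock cells, and differed by 0.83 ± 0.11 (1.77-fold, adjusted p = 0.001). In each of these 3 genes the groups stood apart without overlap, with mock in between. The second LYAR probe gave 0.95 ± 0.12 (adjusted p = 7.52e-04).

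**Figure D3:**
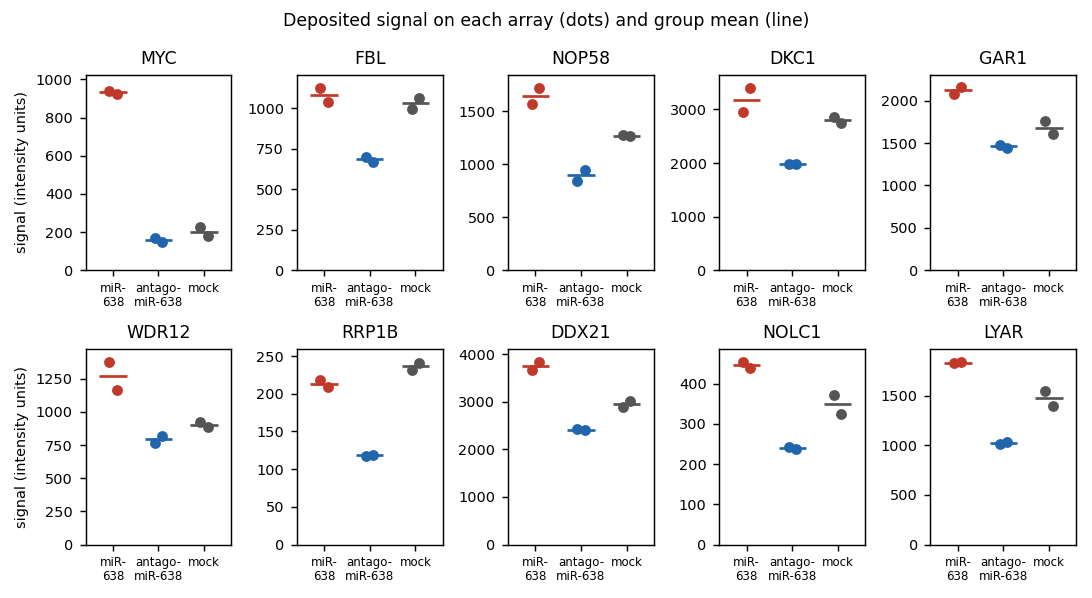
Deposited signal, in linear intensity units from 0, of MYC and the 9 nucleolar genes called between miR-638 and antagomiR-638 cells, on each array (dots) with the group mean (line), for miR-638, antagomiR-638 and mock cells. The mock mean lies between the other means for MYC and for 8 of the 9 nucleolar genes, and for RRP1B it lies above them. MYC differs in size, with means of 931 in miR-638, 157 in antagomiR-638 and 201 in mock cells.

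NCL and NPM1, nucleolin and nucleophosmin, are among the most abundant proteins of the nucleolus. NCL had 4966 and 5491 in miR-638 cells, 4088 and 3963 in antagomiR-638 cells, and 4977 and 4738 in mock cells. Its difference between miR-638 and antagomiR-638 cells was 0.37 ± 0.12 (adjusted p = 0.0427), which was not called. A dimmer NCL probe had 566 and 706 in antagomiR-638 cells, against 976 and 1302 in mock cells, and passed the threshold at -0.82 ± 0.17 (adjusted p = 0.00897), while the brighter one gave -0.27 ± 0.12 (adjusted p = 0.131). The single NPM1 probe read 1.99 and -3.01 in miR-638 cells, 0.269 and -3.01 in antagomiR-638 cells, and 0.258 and 2.39 in mock cells, at background on every array, so no level of NPM1 was measured. POLR1B, a subunit of RNA polymerase I, was the 1 gene that lay lower in miR-638 than in antagomiR-638 cells by more than its standard error, at -0.36 ± 0.22 (adjusted p = 0.27). That held at its brighter probe only, as its dimmer probe gave -0.07 ± 0.23 (adjusted p = 0.858).

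Over the 3 groups together, limma's F test called 8 of the 32 genes (FBL, NOP58, DKC1, WDR12, RRP1B, DDX21, NOLC1 and LYAR), against 17.2% of all genes. An ordinary F-test, computed here on the reprocessed values and sharing no spread over probes, called 0 of all 11501 genes after adjustment, so also 0 of these 32. At an unadjusted p of 0.01 or less it took 8 of the 32 and 16.5% of all genes. The paper names an analysis of variance without saying whether spread was shared, so these counts are not the authors' own result. Calls between miR-638 and antagomiR-638 cells fell to 0 without antagomiR-638 replicate 1, to 1 without antagomiR-638 replicate 2, to 2 without miR-638 replicate 1 and to 3 without miR-638 replicate 2, and were 8 when either mock array was left out, GAR1 then losing its call. Without background modelling, on signals floored at 16, there were 3 (RRP1B, DDX21 and LYAR). The share of all genes called in these settings is not given here.

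The medians of genes with and without a promoter E-box were compared without a test. Between miR-638 and mock cells the median was 0.08 for 14 tested genes with CACGTG and 0.07 for 12 without it. Between antagomiR-638 and mock cells it was -0.20 with and -0.35 without the E-box, and between miR-638 and antagomiR-638 cells 0.28 with and 0.36 without it. Of the 9 genes called between miR-638 and antagomiR-638 cells, 6 had a promoter entry and 4 of these held the E-box. Among the tested genes with a promoter entry that were not called there, 10 of 20 held it. The median of the genes holding CACGTG lay nearer to 0 than that of the others in the 2 comparisons that involve antagomiR-638, but the ranges overlapped. Between miR-638 and antagomiR-638 cells they were 0.04 to 0.83 with and -0.36 to 0.67 without it. Against mock, antagomiR-638 cells gave -0.58 to -0.03 with and -0.60 to 0.17 without it. The called genes NOP58, NOLC1 and RRP1B had no promoter entry and were in neither set.

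Of 115 tested genes of ribosome biogenesis outside the list, 4 were called higher in miR-638 than in mock cells (3.48%, against 1.93% of all genes) and 1 lower (0.870%, against 1.13%), and the median difference was 0.15. MAK16, a large-subunit factor, differed by 0.96 ± 0.13 (adjusted p = 0.0029), NIFK by 0.90 ± 0.11, TAF1A, a subunit of the polymerase I selectivity factor, by 0.85 ± 0.12 and NOC3L by 0.69 ± 0.12. Of the 115, 88 lay above 0, where 50.2% of all genes did. Both miR-638 arrays lay above both mock arrays for 64 (29.6% of all genes) and below them for 16 (28.1%). At an unadjusted p under 0.05, 34 were higher (14.9% of all genes) and 5 lower (13.3%). EXOSC6, a subunit of the RNA exosome, was lower both in miR-638 cells (-0.84 ± 0.13, adjusted p = 0.0053) and in antagomiR-638 cells (-0.62 ± 0.13, adjusted p = 0.0098). It was the 1 gene of the 115 called between antagomiR-638 and mock cells, where 4.78% of all genes were called lower. The median of the 115 was -0.09 there, and 80 lay below 0, where 48.6% of all genes did. Both antagomiR-638 arrays lay below both mock arrays for 55 (31.4% of all genes) and above them for 15 (34.6%). At an unadjusted p under 0.05, 32 were lower (18.0% of all genes) and 6 higher (20.4%). Between miR-638 and antagomiR-638 cells 20 were called higher (17.4%, against 7.55% of all genes), led by NLE1 (1.18 ± 0.15), TAF1A (0.95 ± 0.12), EXOSC8 (0.92 ± 0.13) and MAK16 (0.88 ± 0.13), and IMP3 was called lower (-0.68 ± 0.13, where 8.28% of all genes were lower), with a median of 0.30.

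Of 41 tested textbook MYC targets outside the nucleolus, 1 was called higher in miR-638 than in mock cells (2.44%, against 1.93% of all genes), the amino acid transporter chain SLC3A2 (0.79 ± 0.11, adjusted p = 0.0038), with a median over the 41 of 0.03. In antagomiR-638 cells 5 were lower than in mock cells (12.2%, against 4.78% of all genes): RCC1 (-1.13 ± 0.15), RAN (-0.76 ± 0.13), CAD (-0.73 ± 0.12), SHMT1 (-0.69 ± 0.12) and PAICS (-0.67 ± 0.11), genes of nuclear transport and nucleotide or folate metabolism, and the median was -0.27. Between miR-638 and antagomiR-638 cells 8 were higher (19.5%, against 7.55% of all genes) and 1, the transferrin receptor TFRC (-0.79 ± 0.13), was lower (2.44%, against 8.28%), with a median of 0.38. The highest were RCC1 (0.93 ± 0.15), PPAT (0.79 ± 0.12), PAICS (0.77 ± 0.11) and TFAM (0.68 ± 0.12).

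Of 9 tested genes of the network of MYC, MAX and their antagonists, 2 besides MYC were called. In miR-638 cells against mock, MYC and MXD1 were higher (22.2%, against 1.93% of all genes) and MXD4 was lower (11.1%, against 1.13%). The same genes were called between miR-638 and antagomiR-638 cells (7.55% of all genes were higher and 8.28% lower). Between antagomiR-638 and mock cells 0 of the 9 were called (5.83% of all genes were higher and 4.78% lower). MXD1, which competes with MYC for MAX, had 199 and 203 in miR-638 cells, 90.2 and 90.0 in antagomiR-638 cells, and 83.3 and 98.0 in mock cells, and was higher in miR-638 than in mock cells by 1.03 ± 0.12 (adjusted p = 0.0014). MXD4, another such antagonist, had 222 and 191 in miR-638 cells, 726 and 630.2 in antagomiR-638 cells, and 513 and 637 in mock cells, and was lower in miR-638 than in mock cells by a log2 difference of -1.41 ± 0.15 (adjusted p = 8.8e-04). MYC rose together with 1 of its antagonists and against another, and neither antagonist was called between antagomiR-638 and mock cells.

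**Figure D4:**
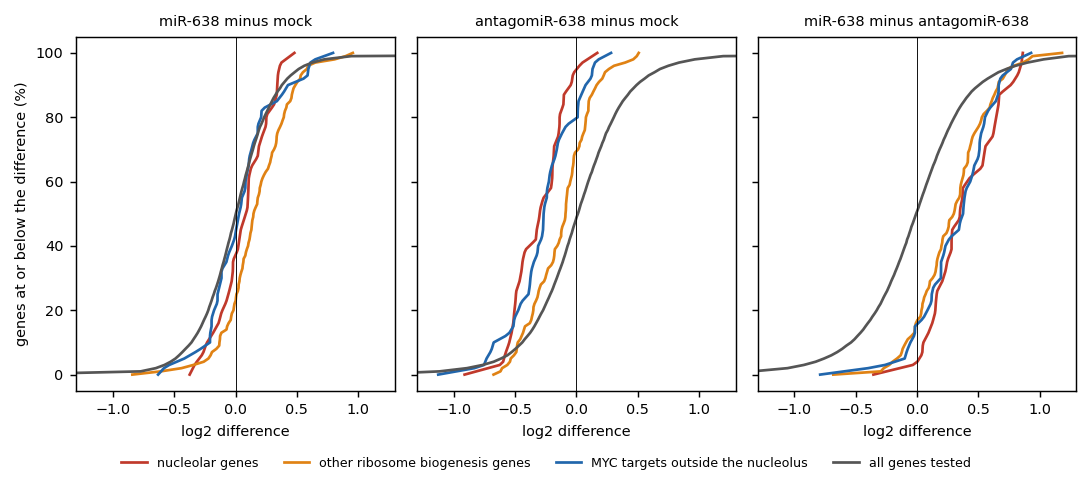
Cumulative share of genes (percent, vertical axis) at or below each log2 difference (horizontal axis) in the 3 comparisons, for the 32 nucleolar genes, 115 other ribosome biogenesis genes, 41 MYC targets outside the nucleolus and all 11501 tested genes. The nucleolar curve lies near that of all genes for miR-638 against mock (medians 0.08 and 0.00150), to its left for antagomiR-638 against mock (-0.30 and 0.01) and to its right for miR-638 against antagomiR-638 (0.35 and -0.01).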

How the data were processed

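The authors processed the arrays with the Bioconductor package lumi, whose version is not given in the sources used here. The deposited intensity values are linear and background-subtracted (26.2% lie below 0) and were already normalized, since the sorted columns of the 6 arrays differ by at most 0.349 units although the table is named non-normalized. The authors deposited a detection p-value for each probe and array beside the intensities. A second deposited table of intensity values differed from the first by at most 0.174 units and served as an alternative.

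Gene names came from the platform's annotation, which held 47319 probes: 30112 had 1 symbol, 8 had several and 17199 had none, and 30073 were matched to RefSeq by Entrez identifier. Intensities were corrected in limma 3.58.1 (R 4.3.3) by normexp with detection p-values (offset 16), quantile-normalized and taken to log2, which shrinks differences of dim probes. A probe was kept when both arrays of some group had a detection p under 0.05 (20145 probes). Each gene was represented by its brightest kept probe, by mean log2 value, and 11 of the nucleolar genes had more than 1 kept probe. Group means were fitted with limma over all 6 arrays (3 residual and 6.31 prior degrees of freedom), with two-sided p-values adjusted by Benjamini-Hochberg over the 20145 probes, and was tested on simulated data.

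The nucleolar genes and the other gene lists were chosen with earlier results of these data known. Values per array are given for genes called in any comparison, for undetected genes, for FBL, NCL, NPM1 and MYC, and up to 4 called genes per direction are named from the other lists. Of the uncalled nucleolar genes, NOP56, NHP2, NOB1, TSR1, IMP4, PES1, BOP1, RRS1, POLR1B and NPM3 were named after their values were seen. Alternatives changed the background step, scaling, detection filter, threshold, groups in the fit, array weights and probe standing for a gene, put the replicate number into the model as a block, or dropped 1 array at a time. Deviations of same-numbered arrays correlated at -0.06, -0.07 and -0.05 between groups, so no common deviation by replicate number was seen. Such values cannot tell whether same-numbered arrays shared a transfection or batch, which the labels do not say.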

Additional observations from a re-analysis of the deposited data

Results flagged for a closer look

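A dim probe of UTP20, a scaffold of the small-subunit processome, lay outside the comparisons because it did not pass the detection filter. It read 10.6 in miR-638 replicate 1, with a detection p of 0.0143, against 5.72 and 5.82 in the mock arrays. The difference rests on 1 array and was not tested, and the probe of UTP20 that was tested read 40.5 and 61.9 in miR-638 cells, against 47.2 and 56.7 in mock cells.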

How the results depend on the processing

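Neither MYC nor any called nucleolar gene changed direction under any setting. With 2 arrays in each group the counts of calls moved more than the differences did, and the medians of the nucleolar genes moved by less than the spread between replicates under every setting that kept all 6 arrays. The cause of these changes was not tested. For most settings, including those that dropped an array, the share of all genes called is not given here. Counts of calls under such settings therefore cannot tell a change in the listed genes from a change over the whole array. In the main setting the nucleolar genes had 0 calls for miR-638 against mock, 2 for antagomiR-638 against mock and 9 for miR-638 against antagomiR-638. In the same order, the other ribosome biogenesis genes had 5, 1 and 21 calls and the MYC targets outside the nucleolus 1, 5 and 9. With signals floored at 16 and no normexp, on either deposited table, the nucleolar counts were 0, 1 and 3 and their F-test count was 1, the other ribosome biogenesis genes had 0, 0 and 8 and the MYC targets 0, 1 and 1, while MYC, at 2.22 for miR-638 against mock, was no longer called (adjusted p = 0.0239 and 0.0241). An offset of 50 gave 0, 8 and 13 for the nucleolar genes, 10, 13 and 37 for the other ribosome biogenesis genes and 5, 11 and 19 for the MYC targets. Without the filter on dim probes the antagomiR-638 count of nucleolar genes was 1, the other ribosome biogenesis genes had 1, 0 and 13 and the MYC targets had 4 calls for miR-638 against antagomiR-638. With a detection p under 0.01 on all 6 arrays, 6 nucleolar and 10 other ribosome biogenesis genes were called for antagomiR-638, and the MYC targets had 4 calls for miR-638 against mock and 16 against antagomiR-638. At an adjusted p of 0.05 or less the nucleolar counts were 1, 11 and 14 (F-test 14), those of the other ribosome biogenesis genes 14, 19 and 43 and those of the MYC targets 6, 11 and 20. Fitting only the 2 groups compared left 1 nucleolar gene for antagomiR-638, 1 and 0 other ribosome biogenesis genes for miR-638 and antagomiR-638 against mock, and 0 MYC targets for miR-638 against mock. Averaging all probes of a gene gave 4 nucleolar genes for antagomiR-638, and the uncalled NCL difference for miR-638 against mock turned to -0.074 (adjusted p = 0.724). The ordinary F-test without shared spread gave 0 nucleolar genes, and 0 of all 11501 genes.

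With the replicate number as a block, nucleolar calls were 0, 1 and 8 (F-test 4), those of the other ribosome biogenesis genes 3, 0 and 13, and the MYC targets had 0 calls for miR-638 against mock. Same-numbered arrays showed no common deviation, and the labels do not say whether the numbers pair them.

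Leaving out 1 array at a time, the nucleolar counts lay at 0 for miR-638 against mock, 0 to 1 for antagomiR-638 against mock, 0 to 8 for miR-638 against antagomiR-638 and 0 to 4 for the F-test, and their medians at 0.03 to 0.10, -0.32 to -0.27 and 0.28 to 0.40. With 2 arrays against 1, nucleolar genes without overlap numbered 21 to 25, 27 to 31 and 27 to 29 of 32, where 78.0% to 79.7%, 82.1% to 83.7% and 82.8% to 84.4% of all genes did not overlap. MYC lay at 1.45 to 2.13, -1.28 to -0.32 and 2.44 to 2.89, as another probe of it was at times the brighter one. At that other probe, MYC was not called for miR-638 against mock without miR-638 replicate 2 or either antagomiR-638 array. The other ribosome biogenesis genes had 0 to 1, 0 and 1 to 18 calls, and the MYC targets 0, 0 to 5 and 0 to 8.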
